A study of Homo sapiens with 9 samples.

Results

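Argonaute (Ago) binding sites gained with a miR-342-3p mimic were examined where they fell in protein-coding sequence and lacked a canonical seed site. A peak was included when its midpoint lay, on its own strand, in a coding exon of an hg19 gene and in no annotated 3′UTR. In addition, the 50 nt on each side of its summit, the point of highest signal, held no seed site and no alternating G/U run of 10 nt or more. Of the 3450 peaks in the miR-342-3p list, 1571 met this rule (45.5%, 95% Wilson interval 43.9 to 47.2), as did 82.7% of the 1899 peaks in coding exons. Both lists of the series together hold 8460 peaks.

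The cells were 231HM, a highly metastatic variant of the triple-negative breast cancer line MDA-MB-231, labelled as breast and wild type. They received 20 nM of a negative control, a miR-342-3p or a miR-342-5p mimic for 48 h, with 3 libraries per group and 9 in all. Ago2-bound RNA was crosslinked with UV light, immunoprecipitated and sequenced (Ago-HITS-CLIP), and each mimic was compared with the same control libraries. Each deposited list merges the replicates of its group. Every peak therefore has 1 score, deposited as reads above background and starting at 5, with no value per library and no replicate error. The read depth is unknown. Tests below treat peaks as the units, so their p-values measure differences between sets of peaks and not between cultures.

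A microRNA guides Ago proteins to messenger RNAs chiefly through its seed, the bases just behind its 5′ end. Most sites that lower a messenger RNA pair fully with the seed and lie in the 3′UTR. Ago also contacts coding sequence, where translating ribosomes pass over the bound RNA, and some microRNAs make use of offset, mismatched or 3′ pairing. The mature miR-342-3p (RefSeq) is shown first with its seed in capitals and then with positions 14 to 20 in capitals, because matches to both stretches recur below.

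miR-342-3p, seed: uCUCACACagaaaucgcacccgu
miR-342-3p, positions 14 to 20: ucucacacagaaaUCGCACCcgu

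Seed sites were GUGUGAGA (8mer), GUGUGAG (7mer-m8) and UGUGAGA (7mer-A1), read on the peak strand. The seedless coding peaks can still hold shorter or shifted matches. The most frequent of those 7 nt long is UGUGUGA, the complement of positions 3 to 9, which the rule leaves only where the next base does not complete a seed site. It is in capitals in the 6 highest-scoring peaks that carry it.

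PSAP: uuacugugaggUGUGUGAauuccuggug
LGALS3BP: guggggcacugUGUGUGAcaaccugugg
HCFC1: cuauggcuucgUGUGUGAcgggacucgc
TCP1: aaaugauuucaUGUGUGAugagauggag
RAN: ucugguacgagUGUGUGAaaacaucccc
TXNRD1: ucggaggaacaUGUGUGAauguggguug

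These 28 nt lie at chr10:73580036-73580063 (minus strand, exon 9 of PSAP), chr17:76972132-76972159 (minus, exon 3 of LGALS3BP), chrX:153230092-153230119 (minus, exon 2 of HCFC1), chr6:160201050-160201077 (minus, exon 10 of TCP1), chr12:131359164-131359191 (plus, exon 6 of RAN) and chr12:104709558-104709585 (plus, exon 7 of TXNRD1), all hg19.

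A second set holds GUGUGAA, a seed word with 1 mismatch, opposite position 2 of the mimic. It is equally GUGUGA, the match to positions 3 to 8, followed by A, and also occurs in the PSAP, RAN and TXNRD1 sequences above. It is shown for MSN and TUBB3, 2 of the 3 highest-scoring peaks, at chrX:64951742-64951769 and chr16:90001217-90001244 (both plus strand).

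MSN: ggagauguaugGUGUGAAcuacuucagc
TUBB3: gugcggaaggaGUGUGAAaacugcgacu

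The third set holds GGUGCGA, the complement of positions 14 to 20. These genes fall outside the rule for naming and were chosen after their values were seen. The windows lie at chr5:180663997-180664024 (minus strand, exon 8 of RACK1), chr4:74017212-74017239 (minus, exon 7 of ANKRD17) and chr3:50151640-50151667 (plus, exon 20 of RBM5).

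RACK1: acggacaaccuGGUGCGAguguggcagg
ANKRD17: cacuuagagauGGUGCGAuuucuuuugg
RBM5: aucccagaauuGGUGCGAaauggagaug

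The last set has no 6 nt match to positions 1 to 10 or 14 to 20 in its window. MMP14 (chr14:23315133-23315160, plus strand) and EIF4G1 (chr3:184049119-184049146, plus) are printed because they are among the strongest peaks of all.

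MMP14: ccgugcugcugcugcuccuggugcuggc
EIF4G1: aggccaggacauuggugcauucgucgcu

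Scores of the 1571 seedless coding peaks ran from 5 to 1134, with a median of 23 and quartiles of 13 and 47. A score above 50 was reached by 363 (23.1%) and above 100 by 147 (9.36%). Their width was 3 to 190 nt, with a median of 61 nt. The highest score, 1134, was in exon 6 of MSN, which encodes moesin, a linker of actin to the plasma membrane. MMP14, a membrane-bound matrix metalloproteinase, followed with 1083 in its last exon, and TUBB3, a β-tubulin, with 932. TGFBR2, the type II TGF-β receptor, had a score of 913 and the translation initiation scaffold EIF4G1 one of 897. Also among the top 10 were PSAP (lysosomal saposin precursor, 589), PSME2 (proteasome activator subunit, 588), EEF1A1 (translation elongation factor, 535) and LGALS3BP (secreted galectin-3 binding protein, 512). The 31 nt around the summit occur 4 times in the genome for PSME2 and 8 times for EEF1A1, so reads of related copies may have been split or pooled there. Over all seedless coding peaks this held for 49 (3.12%).

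The seedless peaks scored lower than the 310 coding exon peaks with a seed site. Mean log2 score was 4.76 against 5.14, a difference of -0.37 ± 0.09 (SE, permutation test of 100000 resamples, two-sided p = 3.00e-05, adjusted p = 5.40e-05 over 9 tests). Median scores were 23 and 33. Both distributions overlapped over most of their range, and the top seedless score of 1134 stood beside a top seed-site score of 1126. In the plot of scores by match, the 179 seedless peaks with UGUGUGA had a median of 35 and quartiles of 18 and 70. The 113 with GUGUGA alone (positions 3 to 8) had a median of 22, the 56 with UGUGAG alone (positions 2 to 7) one of 19, and the 1223 with none of these one of 22. Peaks with any of the 3 matches scored 0.23 ± 0.08 higher in log2 score than those with none (permutation test of 100000 resamples, p = 0.00394, adjusted p = 0.00591). That difference was 0.15 with a permutation p = 0.0741 when the G/U run limit was set to 8 nt, and 0.16 with p = 0.131 among scores above 50.

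**Figure D1:**
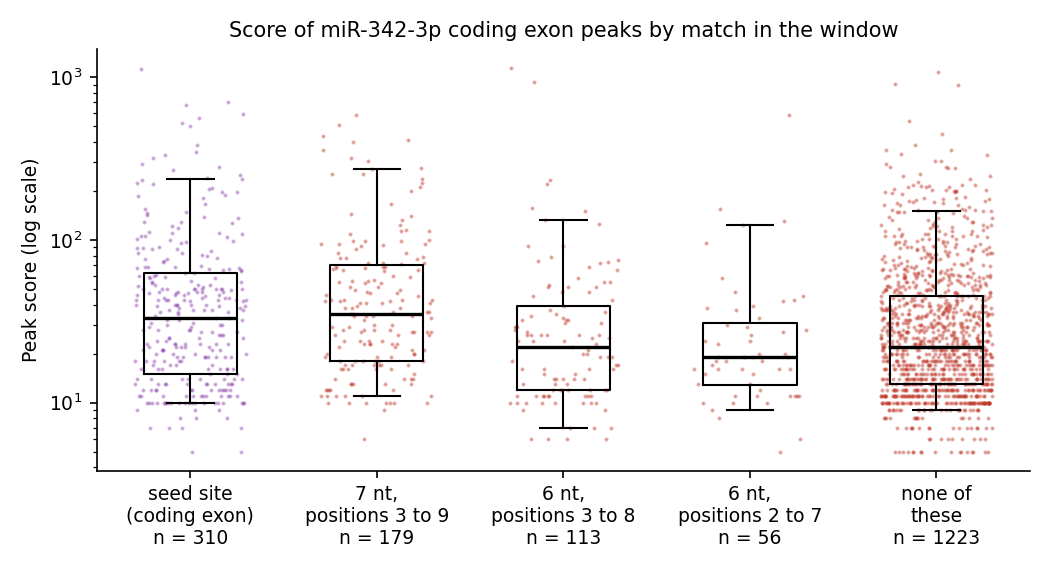
Peak score (log axis) of coding exon peaks of the miR-342-3p list, by the match in the 101 nt window; dots are peaks, boxes the quartiles with the median, and whiskers the 5th and 95th percentiles. Medians are 33 with a seed site, 35 with the 7 nt match to positions 3 to 9, and 22, 19 and 22 in the other 3 classes, and every class spans a wide range.

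UGUGUGA was in 179 of 1571 seedless coding windows (11.4%, interval 9.92 to 13.1). The same word was in 3 of 2507 coding exon windows of the miR-342-5p list (0.120%), chosen without a site for either mimic and without a G/U run. The difference was 11.3 percentage points (interval 9.78 to 12.9, two-sided Fisher exact test, p = 2.57e-72). On the opposite strand of the seedless windows themselves, which has the same GC content, it was in 4 (0.255%). Among the 15 words of 7 nt tiled along miR-342-3p that the rule left, 8 were more frequent in the seedless coding windows after Benjamini-Hochberg adjustment. They covered 2 stretches. From the 5′ part came positions 3 to 9, 4 to 10 (CUGUGUG, 126 windows, 8.02%), 5 to 11 (59 windows) and 6 to 12 (28 windows). From the 3′ part came the 4 words within positions 12 to 21, led by GGUGCGA with 37 windows (2.36%) against 3 (0.120%, Fisher exact test, adjusted p = 3.35e-12). The 7 words between and beyond these stretches did not pass, with 1 to 11 windows each.

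**Figure D2:**
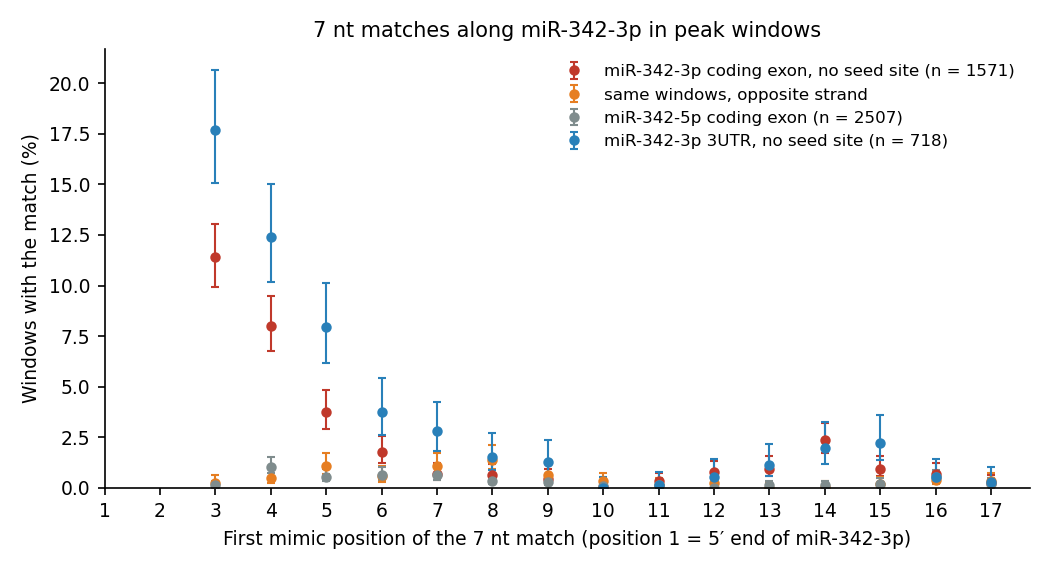
Share of windows (%) with each 7 nt match along miR-342-3p, plotted by the first mimic position it pairs with; points are shares and bars 95% Wilson intervals, for seedless coding peaks, their opposite strand, miR-342-5p coding peaks and seedless 3′UTR peaks of the miR-342-3p list. Both miR-342-3p sets rise at positions 3 to 6 and again, lower, near position 14, while the other 2 stay at or below 1.40%. Positions 1 and 2 are left out because the rule removed those words.

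Seedless 3′UTR peaks of the same list carried UGUGUGA more often, in 127 of 718 windows (17.7%), than the coding ones. The coding minus 3′UTR difference was -6.29 points (interval -9.60 to -3.19, Fisher exact test, p = 6.71e-05). The mean GC content of the coding windows was 51.4%, against 46.4% for those 3′UTR windows, 58.4% for the miR-342-5p coding windows and 51.7% for coding windows with a seed site. The first 2 of these differences passed a permutation test of 100000 resamples (p = 1.00e-05 for both, the smallest it can give). The difference from the coding windows with a seed site was -0.32 ± 0.61 points (permutation p = 0.624). In the spliced windows of the seedless coding peaks, UGUGUGA began at codon position 1 in 108 copies, at position 2 in 151 and at position 3 in 2. A copy that begins at position 3 ends in an in-frame UGA stop codon, a limit that 3′UTR sequence does not have. The part of reading frame or base composition in the 3′UTR comparison was not tested.

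Seed words with 1 mismatch were in 653 seedless coding windows (41.6%) and in 239 miR-342-5p coding windows (9.53%, Fisher exact test, p = 1.43e-126). Of the 21 such words, 13 were more frequent in the seedless coding windows. The 3 words with the mismatch opposite position 2 of the mimic all passed. GUGUGAA was in 168 windows (10.7% against 0.359%), GUGUGAU in 85 (5.41% against 0.199%) and GUGUGAC in 43 (2.74% against 0.199%). They are GUGUGA, the match to positions 3 to 8, followed by any base but G, and the rule removed GUGUGAG. Their counts therefore restate the 292 windows with GUGUGA and cannot show a preference for a mismatch at position 2. Opposite position 3, GUGUGUG was in 119 windows (7.57%), and opposite position 5, GUGCGAG was in 56 (3.56%). None of the 3 words with the mismatch opposite position 6 passed, with 8 to 12 windows each. These words overlap UGUGUGA and each other, so their counts are not independent. GUGCGAG also contains GUGCGA, the match to positions 14 to 19, so its windows are counted again among the 3′ matches below. GGGUGAG (44 windows) was searched in genomic windows that can include the start of an intron, where GUGAG is a common splice donor sequence. GUGAG itself was in 447 genomic and 367 spliced seedless coding windows, and in 352 genomic and 151 spliced miR-342-5p windows.

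A search over all words of 7 nt, apart from the seed words that the rule removed, tested 11851 words that were in 10 or more windows. Sites for miR-342-5p were kept out of the miR-342-5p windows only, so words of those sites could count as more frequent in the seedless coding windows. Of these, 707 were more frequent in the seedless coding windows (5.97%) and 705 less frequent. Among the more frequent words, UGUGUGA ranked first by p, followed by GUGUGAA and then by AUGUGUG, in 108 windows. UGGUGCG, which contains the 6 nt match GGUGCG to positions 15 to 20, ranked eighth among them (82 windows, 5.22%, against 7, 0.279%). The words that were less frequent were led by UCACCCC (2 windows against 236, 9.41%), so the miR-342-5p windows carry words of their own and are not a neutral background.

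The matches lay at the summit. Within 150 nt of it the seedless coding peaks held 246 copies of UGUGUGA, and 162 of them (65.9%) were centred at most 10 nt away. The miR-342-5p coding peaks had 1 of 36 so close. Matches of 6 nt within positions 14 to 20 (GUGCGA or GGUGCG) were centred within 10 nt in 128 of 268 cases (47.8%), against 9 of 139 (6.47%).

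**Figure D3:**
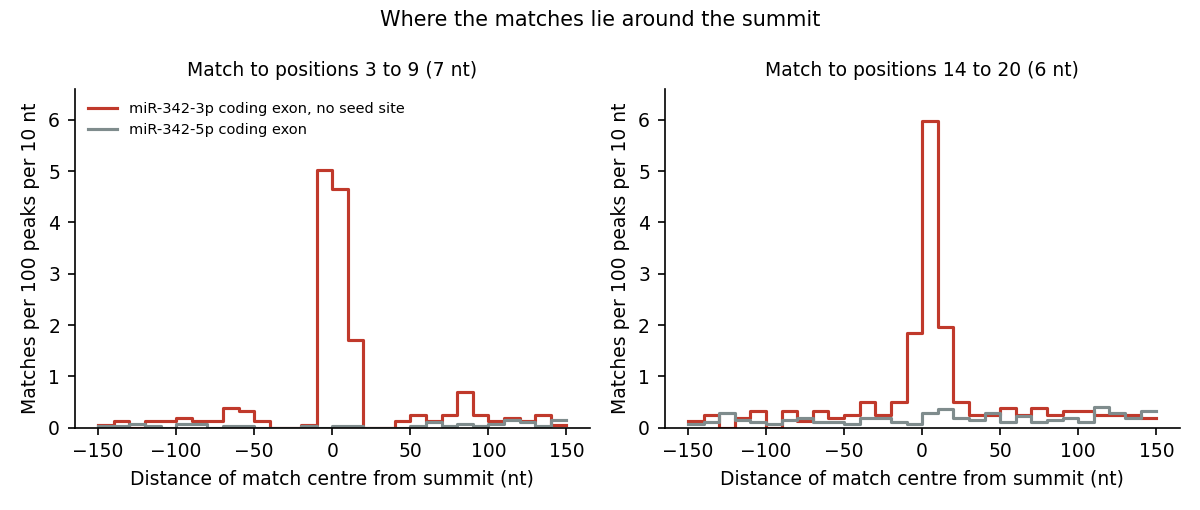
Matches per 100 peaks in each 10 nt step, by the distance of the match centre from the summit, for seedless coding peaks and miR-342-5p coding peaks; left, UGUGUGA, right, 6 nt matches within positions 14 to 20. Seedless coding peaks rise sharply beside the summit in both plots, while the miR-342-5p coding peaks stay low at every distance.

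The 3′ matches were more frequent where the 5′ part did not match. GUGCGA or GGUGCG was in 182 seedless coding windows (11.6%), against 44 miR-342-5p coding windows (1.76%, Fisher exact test, p = 2.92e-40). It was in 18 of the 310 coding windows with a seed site (5.81%), 5.78 points fewer (interval 2.26 to 8.47, Fisher exact p = 0.00172). The seedless 3′UTR windows had it in 9.33%, a difference from the coding ones of 2.25 points (interval -0.53 to 4.80, Fisher exact p = 0.112). Among the seedless coding peaks themselves it was in 48 of the 655 with a 6 nt match to positions 1 to 10 (7.33%) and in 134 of the 916 without one (14.6%, Fisher exact p = 6.60e-06). In the miR-342-5p coding windows, 213 had a 6 nt match to positions 1 to 10, and 2 windows had both matches. A 3′ match alone was in 42, and 2252 had neither. Whether the contrast is particular to the miR-342-3p peaks was not tested. Among the seedless coding peaks with a 3′ match, RACK1, a ribosomal scaffold protein, had one with a score of 282. ANKRD17, an ankyrin repeat protein, had one of 275, and RBM5, an RNA-binding splicing regulator, one of 253. AHNAK2 also carried a 3′ match in its highest peak, with a score of 385. Only 8 peaks had both GUGUGA and a 3′ match, too few to describe their spacing.

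Neither a 6 nt match to positions 1 to 10 nor one to positions 14 to 20 was found in 782 genomic windows (49.8%). With the spliced transcript read as well, 596 peaks (37.9%) had neither in either window, with a median score of 21 and 55 above 100. A match in the intron part of a genomic window still counted as a match, so more peaks may be unmatched on the messenger RNA. The shorter word GGUGC, complement of positions 16 to 20, was in 211 of these 596 (35.4%), against 245 of 2216 equally unmatched miR-342-5p windows (11.1%). It was examined after longer words that contain it had been found more frequent in the seedless coding windows than in the miR-342-5p windows. Those miR-342-5p windows are also not a neutral background, so a test of this difference cannot count as separate evidence. GGUGC was centred within 10 nt of the summit in 126 of 358 occurrences within 150 nt (35.2%), against 60 of 846 (7.09%). MMP14 and EIF4G1 both carry it in the sequence shown above. PKM, the glycolytic pyruvate kinase with a score of 356, HNRNPU, an RNA-binding nuclear matrix protein (305), and the top peaks of AHNAK (295) and DYNC1H1 (104) carry none of these matches.

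Predicted pairing was read over the whole window. The duplex energy with miR-342-3p minus that with its reversed letters averaged -0.15 ± 3.65 kcal/mol (SD) in seedless coding windows, 1.08 ± 3.17 in miR-342-5p coding windows and -3.04 ± 4.20 in coding windows with a seed site. The difference from the miR-342-5p windows was -1.22 ± 0.11 (SE, permutation test of 100000 resamples, p = 1.00e-05). Seedless coding windows themselves paired nearly as well with the reversed letters (mean -14.6) as with miR-342-3p (mean -14.7), and 51.4% had a difference below 0. The reversed letters still hold CACAC, which can pair with the GUGUG inside UGUGUGA. They are therefore no neutral reference, and near-equal energies cannot show that specific pairing is absent. Seedless 3′UTR windows averaged a difference of -0.11 ± 3.77 (SD). Peaks with UGUGUGA averaged -1.95 and those without any of the 3 short 5′ matches 0.15. Of the single peaks, TCP1, a subunit of the cytosolic chaperonin, reached -8.3, whereas RAN, the GTPase of nuclear transport, had 4.5 although both carry UGUGUGA.

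Many seedless summits stood at the end of an exon. In 329 of 1571 (20.9%) the summit was within 5 nt of an exon end that joins another exon, compared with 274 of 2507 miR-342-5p coding peaks (10.9%, difference 10.01 points, interval 7.69 to 12.4, Fisher exact test, p = 5.91e-18). Of the 329, 322 were at the downstream end of the exon and 7 at the upstream end. The miR-342-5p peaks had 254 and 20. Those at a downstream end included TGFBR2 (913) and HNRNPU (305). Peaks at exon ends were narrower, with a median width of 36 nt against 72 nt for the 601 peaks whose whole window lay in 1 exon. Their median scores were 23 and 24.

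**Figure D4:**
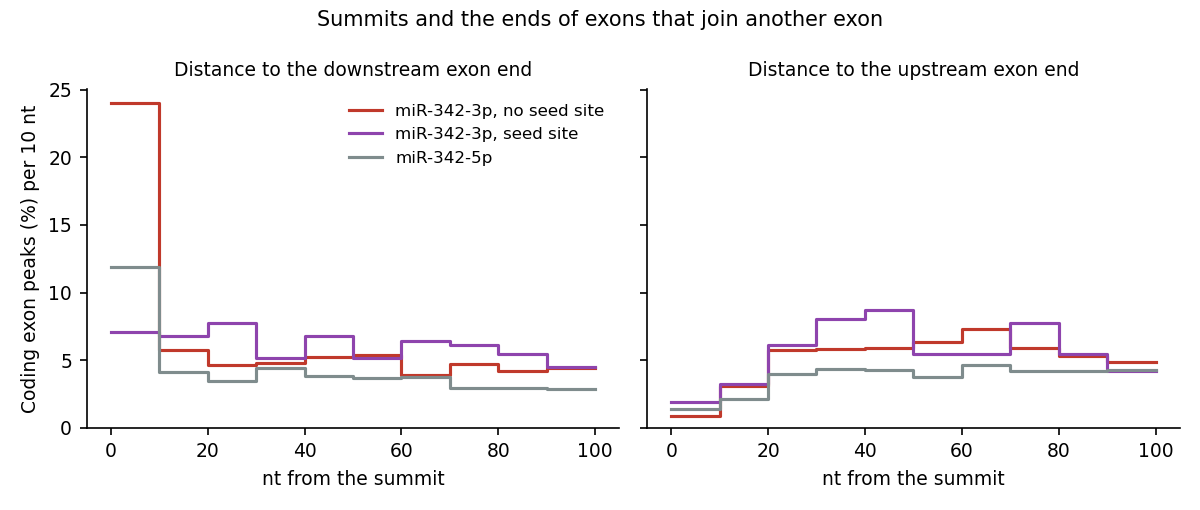
Share of coding exon peaks (%) by the distance of the summit from the downstream (left) and upstream (right) end of its exon, in 10 nt steps, for ends that join another exon. Within 10 nt of the downstream end lie 377 of the 1571 seedless miR-342-3p peaks, 7.10% of those with a seed site and 11.9% of the miR-342-5p peaks, and the upstream end shows no such excess.

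The window of such a peak, read from the genome, runs into the intron. When it was read from the spliced transcript instead, 74 of the 1571 peaks held a seed site that the genomic window lacked, 29 of them an 8mer. These 74 are seedless by the rule but not on the messenger RNA. In 63 of them the summit was within 5 nt of an exon end, and in 71 the site lay 3′ of the summit. The median distance over all 74 was 12.5 nt. A site missing from the genomic window has to reach into the adjoining exon, so its direction was largely set by how these peaks were chosen. Their scores ran from 9 to 913 with a median of 22.5. TGFBR2 led, with an 8mer 19 nt past the summit, in exon 8 where the summit ends exon 7. FST (202, exons 2 and 3), which encodes the activin antagonist follistatin, also had an 8mer, and PRKCSH (206) and the elongation factor EEF2 (123) had a 7mer. FST, PRKCSH and EEF2 were named after their values were seen. The spliced sequences of the TGFBR2 and FST 8mers are printed with the site in capitals, because the genomic windows do not show it. The stretch printed for TGFBR2 lies wholly in exon 8, and that for FST runs from exon 2 into exon 3.

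TGFBR2: uccagaugguGUGUGAGAcguugacuga
FST: guaaagaaacGUGUGAGAacguggacug

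At the 329 exon-end summits, the spliced windows held a seed site in 63 (19.1%), UGUGUGA without a seed site in 44 (13.4%, against 4 in the genomic windows) and GUGUGA alone in 27 (8.21%, against 3). LAMB3, the laminin β3 chain, gained GUGUGA in this way, and NARS1, an asparaginyl-tRNA synthetase, gained UGUGUGA. HNRNPU gained none of them. Over all seedless coding peaks, GUGUGA was in 292 genomic windows and in 424 spliced ones. With the rule itself applied to spliced sequence, exon-end summits made up 17.8% of 1503 seedless peaks, 20.4% of 377 peaks with a seed site (difference -2.59 points, interval -7.33 to 1.67, Fisher exact test, p = 0.264) and 8.11% of 2428 miR-342-5p peaks (p = 2.23e-19). In the 601 peaks whose window lay whole in 1 exon, UGUGUGA was in 83 (13.8%), against 1 of 1460 such miR-342-5p windows (0.0685%).

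Of the 329 exon-end peaks, 56 (17.0%) faced another peak of the list, with its summit within 30 nt of the facing end of the adjoining exon. In 44 of the 56 the facing peak had the higher score. TXNRD1, a thioredoxin reductase, had a score of 181 at the end of exon 6 and 359 at the start of exon 7, where UGUGUGA lies. PSAP had 201 at the end of exon 7 and 304 in exon 8. PHF5A, a component of the splicing complex SF3b, had 37 at the end of exon 1 and 77 in exon 2, and the exon 2 peak holds UGUGUGA. Such facing peaks were counted as separate peaks here.

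Along the coding sequence the seedless peaks were spread nearly evenly, with 8.08% to 11.9% in each of 10 equal steps. Their mean position was 48.1% of the coding length, against 50.6% for miR-342-5p coding peaks (difference -2.56 ± 0.90, permutation test of 100000 resamples, p = 0.00463) and 52.2% for coding peaks with a seed site (-4.17 ± 1.74, p = 0.0164). With 1 peak per gene neither difference passed (permutation p = 0.301 and p = 0.0636).

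The seedless peaks lay in 1154 genes, 5.73% of the 20136 annotated protein-coding genes. Of these genes, 899 had 1 such peak, 163 had 2 and 92 had 3 or more. A 3′UTR peak of the same list was present in 116 of the 1154, and 35 of these had one with a seed site. A coding exon peak with a seed site was present in 98, and 946 genes had neither. AHNAK, a giant scaffold protein, had the most with 15 peaks and scores of 18 to 295, and 2 of the 15 held a short match, here the 7 nt match to positions 3 to 9 or a 6 nt match to positions 2 to 7 or 3 to 8. AHNAK2 had 9 (6 to 385, 1 with a match), LAMB3 7 (15 to 74, 4 with a match), the plakin DST 7 (7 to 39, 4 with a match) and the dynein heavy chain DYNC1H1 6 (28 to 104, none with a match). Tied with DYNC1H1 at 6 peaks, but with lower summed scores, were TNC (9 to 72, 5 with a match), ITGB4 (12 to 57, none with a match) and TLN1 (12 to 38, 2 with a match). AHNAK, AHNAK2 and DST have coding sequences of 17670, 17385 and 23454 nt, whereas LAMB3 has 3516 nt.

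Gene lists were read against that 5.73%, by count and with no test, and only the same 3 short matches were counted. Transcript abundance is not part of the peak lists, so abundance and binding cannot be told apart. The study named 14 E2F pathway genes as direct targets from these samples, which is no independent choice. Its definition of a direct target required a miR-342-3p peak, so 5.73% is no fair reference for this list. Of the 14 genes, 9 had a seedless coding peak (64.3%), with 11 peaks in all and a median score of 23. RAN had the highest, 398. PHF5A followed with 77 and 37. DNMT1, the maintenance DNA methyltransferase, had a score of 59 at the end of exon 26, and its spliced window held a seed site. USP1, a deubiquitinase of DNA repair, had 32 with UGUGUGA. KIF4A, a chromosome-associated kinesin, had 23 and SPAG5, a spindle protein, 16. MAD2L1, a spindle checkpoint protein, had 21 and 6 in 2 adjoining peaks, both with GUGUGA in the window. These 2 windows overlap, so GUGUGA may be the same copy in both. The 31 nt around the weaker summit occur 2 times in the genome. RFC3, a clamp loader subunit, had 10, and DSCC1, a cohesion factor, had 10 in a peak 3 nt wide. Most of these scores lay at or below the median of all seedless coding peaks, with RAN, PHF5A, DNMT1 and USP1 above it.

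Among the other lists, glycolysis had 11 of 20 genes (55%, 26 peaks, median score 47), led by PKM. The aminoacyl-tRNA synthetases had 12 of 22 (54.5%), led by NARS1 with 66. The extracellular matrix and integrin list had 20 of 42 (47.6%), and 20 of its 52 peaks held one of these matches. MMP14 led it without one. The cytoskeletal list had 19 of 42 (45.2%, 74 peaks), led by MSN, with a match in 14 of the 74. Nuclear transport had 16 of 44 (36.4%), led by RAN, and splicing factors 16 of 53 (30.2%), led by HNRNPU. Translation factors had 10 of 39 (25.6%, median score 59), led by EIF4G1, and chaperones 7 of 33 (21.2%, median score 83.5), led by TCP1 with 411. Each of these last 2 lists had 1 of the 3 matches in 1 peak only. Mitosis had 10 of 44 (22.7%), led by the midbody kinesin KIF23 with 272 and UGUGUGA in its window.

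Lower shares were found in ribosomal proteins with 11 of 88 (12.5%), where 9 of 17 peaks lay in sequence with further copies and RPL8 led with 150. RNA silencing and decay had 5 of 44 (11.4%), led by the decapping scaffold EDC4 with 275 and UGUGUGA. Its members included AGO1 and AGO2 themselves. Replication had 5 of 46 (10.9%), led by the topoisomerase TOP1 with 92, and none of its 5 peaks held one of the 3 matches. C2H2 zinc finger genes had 16 of 551 (2.90%), led by ZNF395 with 108, and histones 2 of 81 (2.47%), led by the variant MACROH2A1 with 53. Both lay below the share of all genes.

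**Figure D5:**
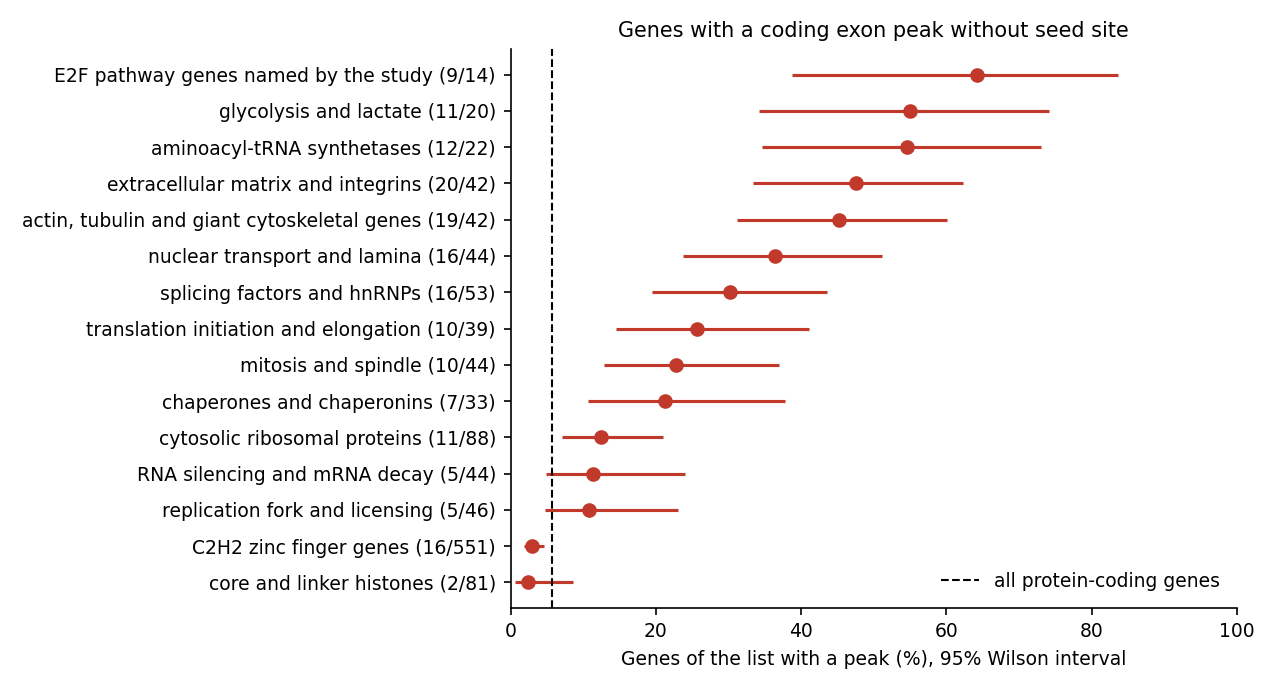
Share of the genes of each list (%) with at least 1 seedless coding peak, with 95% Wilson intervals and the counts in brackets; the dashed line is the share of all protein-coding genes. Shares run from 2.47% in histones to 64.3% in the E2F pathway genes, beside 5.73% for all genes.

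At the limits of the rule, the 13 peaks whose longest G/U run was 9 nt had a median score of 41, as did the 8 left out at a run of 10 nt. The 25 peaks whose nearest seed site was centred 48 to 70 nt from the summit had a median of 31, and the 7 left out with a site at 40 to 47 nt one of 16.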

How the data were processed

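Ago-HITS-CLIP libraries (3 per mimic) were processed by the authors with cutadapt 1.13, TopHat2 2.0.13 on hg19, UMI-tools and MACS2 2.1.1.20160309, with strands called separately and replicates merged. The deposited score of each peak was described by the authors as reads above background, at least 5. No per-library value was used here. Peaks were placed on GENCODE release 44 lifted to GRCh37, with 3′UTR before coding exon, and named by the longest coding transcript. Windows of 101 nt were read from that genome. Shares were compared with two-sided Fisher exact tests, with Benjamini-Hochberg adjustment over words, and means with permutation tests (Python 3.11.15, SciPy 1.17.1). Duplex energies came from ViennaRNA 2.7.2. The word and permutation tests were tested on simulated data. The members and the gene lists were chosen with earlier results of these data known. Named genes were the 10 highest scores, the 5 genes with the most peaks, the 6 highest scores with UGUGUGA, each E2F list gene and the highest peak of each other list; some named items are not reported here. Alternatives covered score, window, G/U limit, placement, splicing and 1 peak per gene. Windows whole in 1 exon were added after seeing the data.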

Additional observations from a re-analysis of the deposited data

How the results depend on the processing

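The number of seedless coding peaks, the UGUGUGA share, the word counts, duplex energy, scores, GC content and coding position were recomputed under 10 to 12 alternatives. The exon-end share was recomputed on spliced sequence only, and the other results were not. Of the 144 values, 128 kept their direction and side of the threshold or stayed within 1.5 times the main count. The number of seedless coding peaks was 363 above a score of 50 and 601 with the window whole in 1 exon. With scores above 50, 3 words along the mimic passed instead of 8, 7 mismatched seed words instead of 13, and 65 of all words instead of 707. The last count was 442 with the whole peak, 239 with 1 peak per gene and 310 with windows in 1 exon, where fewer words were tested. The score difference by match was 0.16 above a score of 50 and 0.15 with a G/U limit of 8 nt, neither past the threshold. The GC difference from peaks with a seed site was 0.0739 points with windows in 1 exon, against -0.32. The coding position difference from miR-342-5p peaks was 3.18 above a score of 50 (permutation p = 0.140) and -1.18 with 1 peak per gene. That from peaks with a seed site was -4.79, -3.41 and -3.58 above a score of 50, with 1 peak per gene and with windows in 1 exon, none past the threshold. Apart from fewer windows and words, the cause was not tested. The UGUGUGA difference passed under every alternative run. No paired analysis was possible because the lists merge the replicates, and leaving out a library was not possible for the same reason. Depth is unknown, and both lists share their control libraries.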
